A study of Mus musculus with 9 samples.

Results

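The transcripts of 8 CC chemokine genes, Ccl2, Ccl5, Ccl7, Ccl8, Ccl9, Ccl11, Ccl19 and Ccl20, were followed in cultured mouse synovial fibroblasts (SFs). The genes were chosen by name, with earlier results of these data known, and all 8 were among the 49548 genes of the deposited tables. The paper used CCL5 and CCL20 as markers of activation, citing its own expression results. Shares of all genes set beside counts of these 8 are therefore a description. Transcripts of 7 of them were above 0 in at least 1 library, whereas Ccl19 was listed at 0 in all 9 libraries. In SFs that carry a human TNF transgene, all 7 were raised over WT SFs by the study's rule, with Ccl2 and Ccl7 at the highest levels and Ccl20 with the largest log2 fold change among those with more than 2 reads in WT. After treatment with infliximab 5 of the 7 were lowered by the same rule, and 6 of the 7 were still raised over WT by it. Of all genes tested, 3.35% were raised in hTNFtg versus WT SFs by this rule. With infliximab 0.936% were lowered, and 3.86% were raised in infliximab-treated hTNFtg versus WT SFs. None of the 7 was lowered by infliximab at an adjusted p under 0.05 in limma, and 2 were in edgeR.

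CC chemokines are small secreted proteins named for a pair of adjacent cysteines. They bind G protein-coupled receptors on leukocytes and guide these cells into tissue. TNF binds its receptors on fibroblasts and activates the transcription factor NF-kB, which is known to drive many chemokine genes, and in the arthritic joint the synovial fibroblast is one of the sources of these attractants. Ccl2, Ccl7 and Ccl8 are known to attract monocytes, Ccl11 (eotaxin) eosinophils, Ccl5 (RANTES) T cells and monocytes, Ccl9 myeloid cells through Ccr1, Ccl20 cells that carry Ccr6, and Ccl19 cells that carry Ccr7.

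The SFs were grown from the ankles of CBA C57BL/6J mice at 8 weeks of age, and CD45+ cells, meaning leukocytes, had been depleted at passage 1. The 3 groups, each of 3 libraries, were wild type (WT) SFs, hTNFtg SFs, and hTNFtg SFs given infliximab at 1 µg/mL for 48 hours. The hTNFtg line is a transgenic mouse model of arthritis in which the gene for human TNF is expressed, and infliximab is an antibody against human TNF. The labels give the WT and the other hTNFtg SFs as without treatment, where the methods describe vehicle, and infliximab-treated WT SFs were not analysed here. The methods call the replicates biological without saying how many mice each library came from, so that p-values measure the spread between these libraries. The values are reads near the 3′ end of transcripts, counted per gene, normalized by the authors and rounded, and are called normalized counts below. Because each transcript is read at its end, the count does not grow with gene length, and levels of different genes are compared on that scale only.

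The libraries held approximately 3829104 to 9016375 reads on genes, except for hTNFtg replicate 1 with 613343. One read in that library was worth 6.23 normalized counts and 3 reads 18.7, against 1.60 to 3.31 for 3 reads in the other 8 libraries. A gene with up to 3 reads in a library was taken as being at the floor there, which covers counting error only. None of 10 fibroblast markers, among them collagen genes and Pdgfra, was at 0 in all 9 libraries, and they had summed normalized counts of 31192 to 44105 over the 9 libraries. Of these 10, Pdpn was raised (log2 fold change 2.01, limma adjusted p = 0.0729) and Lum lowered (-1.69, limma adjusted p = 0.210) in hTNFtg versus WT SFs by the rule. By it 3.35% of all genes tested were raised and 3.04% lowered. With infliximab 0 of the 10 were called, near the 0.936% of all genes that were lowered. Markers of macrophages were not at 0 after the depletion. Their summed normalized count over 12 markers was 205 to 798 in WT, 3415 to 7797 in hTNFtg and 2268 to 4738 in infliximab-treated SFs. Of 13 tested entries of these markers, 11 were raised in hTNFtg versus WT SFs by the rule, against 3.35% of all genes tested. With infliximab 2 were lowered, against 0.936%, Itgam (log2 fold change -1.33) and C1qb (-1.13), and the median log2 fold change of the 13 was -0.29. Ptprc, which encodes CD45, was at 0, 3 and 0 in WT replicates 1, 2 and 3, at 31, 9 and 12 in hTNFtg and at 28, 8 and 22 with infliximab. Macrophages also express several of the 8 chemokine genes, and the part of these cells in the results below was not tested. In such bulk libraries a change in the number of cells of a type and a change in RNA per cell cannot be told apart. Lymphocyte markers summed to 9 to 28 with 5 of 10 at 0 throughout, and endothelial markers to 1 to 6.

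Of the 8 genes, 6 lie on chromosome 11 in clusters of related genes. On mm10 (GRCm38) the first cluster holds Ccl2 at chr11:82035571-82037453, Ccl7 at chr11:82045712-82047525, Ccl11 at chr11:82057823-82062955 and Ccl8 at chr11:82115185-82116799, all on the plus strand within 81.2 kb. The second cluster starts 1490 kb from the start of Ccl2 and holds Ccl5 at chr11:83525778-83530518 and Ccl9 at chr11:83572919-83578636, both on the minus strand. Ccl20 lies alone at chr1:83116766-83119167 on the plus strand, and Ccl19 at chr4:42754525-42756577 on the minus strand. All 8 are protein-coding genes. The last 400 bases of the transcripts of Ccl2, Ccl5, Ccl7, Ccl8 and Ccl20 shared no stretch of 30 bases with annotated transcripts of another gene. Those of Ccl9 shared 5 of 371 stretches with Gm33246, and those of Ccl11 3 of 371 with Ceacam19, Hnrnpll or Yes1. Transcripts were searched in their own direction only, so counts shared with genes on the opposite strand were not covered. Ccl2 lies inside Gm17268, a gene on the opposite strand that was listed at 0 in all 9 libraries.

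The first comparison asked which of these transcripts differ between arthritogenic and healthy SFs. All 7 tested genes were raised in hTNFtg SFs by the study's rule. It asks for p under 0.05 together with a change of 1 or more on the log2 scale, and p was read as the value before adjustment. Here limma gave both, fitted to log2(normalized count + 1). By that rule 3.35% of all 28522 genes tested were raised. With Benjamini-Hochberg adjustment over all genes, 5 of the 7 had an adjusted p under 0.05, against 0.235% of all genes that were higher by this measure, and 7 of 7 did when edgeR's quasi-likelihood test was run on the approximate reads, against 2.06%. The groups did not overlap for 6 of the 7, against 5.63% of all genes. The median log2 fold change was 3.45 over the 7 genes, against -0.0034 over all genes tested. The adjusted calls rested on all 6 libraries: without any 1 of them limma left 0 (without WT replicate 2) to 3 (without hTNFtg replicate 3) of the 5, and 1 in each other case, while 6 or 7 stayed past the study's rule. The adjusted calls also fell to 0 without a filter on low values, and to 0 with the replicate number as a block.

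Among the monocyte attractants, Ccl2 and Ccl7 carried most of the counts. Ccl2, the classical monocyte attractant that acts through Ccr2, was at 545, 329 and 207 normalized counts in WT replicates 1, 2 and 3, at 4914, 3855 and 2579 in hTNFtg SFs and at 1639, 1958 and 1954 in infliximab-treated SFs. The 3 groups did not overlap, with infliximab-treated SFs between the other groups. The hTNFtg mean of 3783 ± 1169 (SD, n = 3) was 10.5 times the WT mean of 360.3 ± 171.2 (SD, n = 3), with a fitted log2 difference of 3.45 (standard error 0.41, limma adjusted p = 0.00598). In rank by mean level, Ccl2 stood at position 2218 of 25092 genes above 0 in WT SFs and at 134 of 25678 in hTNFtg SFs. The 4914 of hTNFtg replicate 1 rests on 789 reads.

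Ccl7 was at 750, 390 and 284 normalized counts in WT, at 3208, 1943 and 2226 in hTNFtg and at 927, 971 and 995 with infliximab. Again the groups were separate, and the infliximab libraries were the closest to each other. The mean in hTNFtg SFs was 2459 ± 663.9 (SD, n = 3) and that in WT SFs 474.7 ± 244.3 (SD, n = 3), with a fitted log2 difference of 2.46 (standard error 0.40, limma adjusted p = 0.0237). In hTNFtg SFs both genes were highest in replicate 1, as was the macrophage sum (7797, 3415 and 5576 in replicates 1, 2 and 3). In WT SFs both were highest in replicate 1 and the macrophage sum in replicate 2 (205, 798 and 372).

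Ccl8 was nearly silent in WT SFs, at 2, 0 and 0 normalized counts, which were 2 reads in all. It reached 25, 34 and 85 in hTNFtg SFs and 11, 17 and 27 in treated SFs. The WT libraries lay below all others, and the treated and untreated hTNFtg libraries overlapped at 27 and 25. Per unit of depth the pooled reads of hTNFtg SFs were 116 times those of WT SFs, with an exact 95% interval of 31.7 to 963 that covers counting error only. Of the 203 pooled hTNFtg reads 159 came from replicate 3, and the ratio was 60.5 without that library and 68.4 without WT replicate 3, while without WT replicate 1 no WT read was left. The ratio of the mean normalized counts was 72.0. The fitted log2 fold change, which depends on the pseudocount at such levels, was 4.89 (standard error 0.85, limma adjusted p = 0.0322) and 6.20 in edgeR. The value of hTNFtg replicate 1 rests on 4 reads.

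Only the promoters of Ccl8, Ccl9, Ccl19 and Ccl20 could be matched in the RefSeq promoter table for GRCm38.p6 (4 of 8 genes). Those of Ccl8, Ccl9 and Ccl20 are shown since these 3 genes include the smallest and some of the largest fold changes between hTNFtg and WT SFs. Each line gives the 250 bases before the start of the gene, 5′ to 3′ on the strand of the gene, at chr11:82114935-82115184 for Ccl8, chr11:83578637-83578886 for Ccl9 and chr1:83116516-83116765 for Ccl20. Capitals mark matches, on either strand, to the NF-kB consensus, to the TATA box letters TATAAA or to the AP-1 site, which was searched for as TGANTCA. Overlapping matches run together.
Ccl8: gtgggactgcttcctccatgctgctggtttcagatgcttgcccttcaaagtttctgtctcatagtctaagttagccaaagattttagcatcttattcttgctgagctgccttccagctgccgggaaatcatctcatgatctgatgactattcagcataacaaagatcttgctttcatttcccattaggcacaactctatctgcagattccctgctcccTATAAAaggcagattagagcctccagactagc
Ccl9: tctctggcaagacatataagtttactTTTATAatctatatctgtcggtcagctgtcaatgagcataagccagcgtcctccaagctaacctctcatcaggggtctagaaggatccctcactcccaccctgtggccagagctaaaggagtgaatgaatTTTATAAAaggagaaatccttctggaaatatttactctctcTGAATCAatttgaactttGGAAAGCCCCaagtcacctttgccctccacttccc
Ccl20: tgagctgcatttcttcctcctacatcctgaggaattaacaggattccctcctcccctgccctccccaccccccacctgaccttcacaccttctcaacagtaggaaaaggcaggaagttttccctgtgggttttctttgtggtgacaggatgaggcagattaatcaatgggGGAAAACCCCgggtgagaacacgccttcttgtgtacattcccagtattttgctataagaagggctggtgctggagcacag
In Ccl20 the NF-kB consensus matched on the reverse strand 80 to 71 bases before the start, as GGGGTTTTCC. In Ccl9 it matched on the reverse strand 35 to 26 bases before the start, as GGGGCTTTCC, next to a TGANTCA match at 53 to 47 bases and TATAAA matches at 92 to 87, 94 to 89 and 224 to 219 bases. In Ccl8 only TATAAA matched, 32 to 27 bases before the start, and the 250 bases of Ccl19 held none of the 3. Among 32851 promoters of the same length, 7.25% held the NF-kB consensus, 12.4% TATAAA and 6.75% TGANTCA. A match describes these letters only. Of the 3 raised genes shown, Ccl20 and Ccl9 held the NF-kB consensus and Ccl8 did not.

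Ccl20 and Ccl5 were also low in WT SFs. Ccl20, the ligand of Ccr6 on Th17 cells and dendritic cells, was at 15, 12 and 10 normalized counts in WT, at 1439, 696 and 650 in hTNFtg SFs and at 150, 129 and 170 in treated SFs. The groups were far apart, and the highest WT library was more than an order of magnitude below the lowest hTNFtg library. The means were 12.3 ± 2.52 in WT and 928.3 ± 442.8 in hTNFtg SFs (SD, n = 3), a 75.3-fold ratio and a fitted log2 difference of 6.04 (standard error 0.37, limma adjusted p = 3.82e-05). Its rank by mean level went from 12735 to 867. Without hTNFtg replicate 1, the shallow library in which Ccl20 was highest, the log2 fold change was 5.68 (limma adjusted p = 0.0367), and Ccl20 was then the only 1 of the 7 with an adjusted p under 0.05.

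Ccl5 was at 3, 4 and 1 normalized counts in WT, at 106, 128 and 53 in hTNFtg and at 17, 16 and 32 with infliximab. WT SFs were at or near the floor, and no groups overlapped. The hTNFtg mean of 95.7 ± 38.6 (SD, n = 3) was 35.9 times that of WT, with a log2 fold change of 4.73 (standard error 0.63, limma adjusted p = 0.00948). Over the alternatives run, its log2 fold change lay between 3.65 and 5.28.

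Ccl9 differed least. It was at 52, 64 and 35 normalized counts in WT, at 268, 100 and 156 in hTNFtg SFs and at 78, 60 and 62 in treated SFs. The hTNFtg libraries lay above all others, and the infliximab libraries overlapped with WT. The log2 fold change between hTNFtg and WT SFs was 1.70 (standard error 0.41), past the study's rule at an unadjusted p of 0.00163 but not adjusted (limma adjusted p = 0.131). Without hTNFtg replicate 1 it was 1.34.

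Ccl11 was low throughout. It was at 0 in each WT library, at 0, 14 and 13 in hTNFtg SFs and at 6, 5 and 10 in treated SFs. The 0 of hTNFtg replicate 1 is uninformative, since at its depth 3 reads correspond to 18.7 normalized counts, and this library makes the groups overlap. The hTNFtg mean was at least 3.56-fold higher than WT, with WT set at 3 reads per library (unadjusted p = 0.0264 and adjusted p = 0.514 in limma). The call by the study's rule was lost in 7 of 16 alternatives, among them each of the 3 fits without a WT library and those without hTNFtg replicate 2 or 3 (unadjusted p = 0.0899 to 0.0997 in limma), whereas without hTNFtg replicate 1 its unadjusted p was 1.36e-04 in limma.

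Ccl19 was listed at 0 in all 9 libraries and could not be tested. At the depth of the deeper 8 libraries a count of 0 allows 1.60 to 3.31 normalized counts. Of the 486 stretches of 30 bases in the ends of its transcripts, 319 also occur in Ccl19-ps1, Ccl19-ps3, Gm12407 or Gm2564, so that reads from Ccl19 could have been split or dropped. Of these copies, Ccl19-ps1 and Ccl19-ps3 were at 0 throughout, and Gm12407 and Gm2564 reached at most 3.

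**Figure D1:**
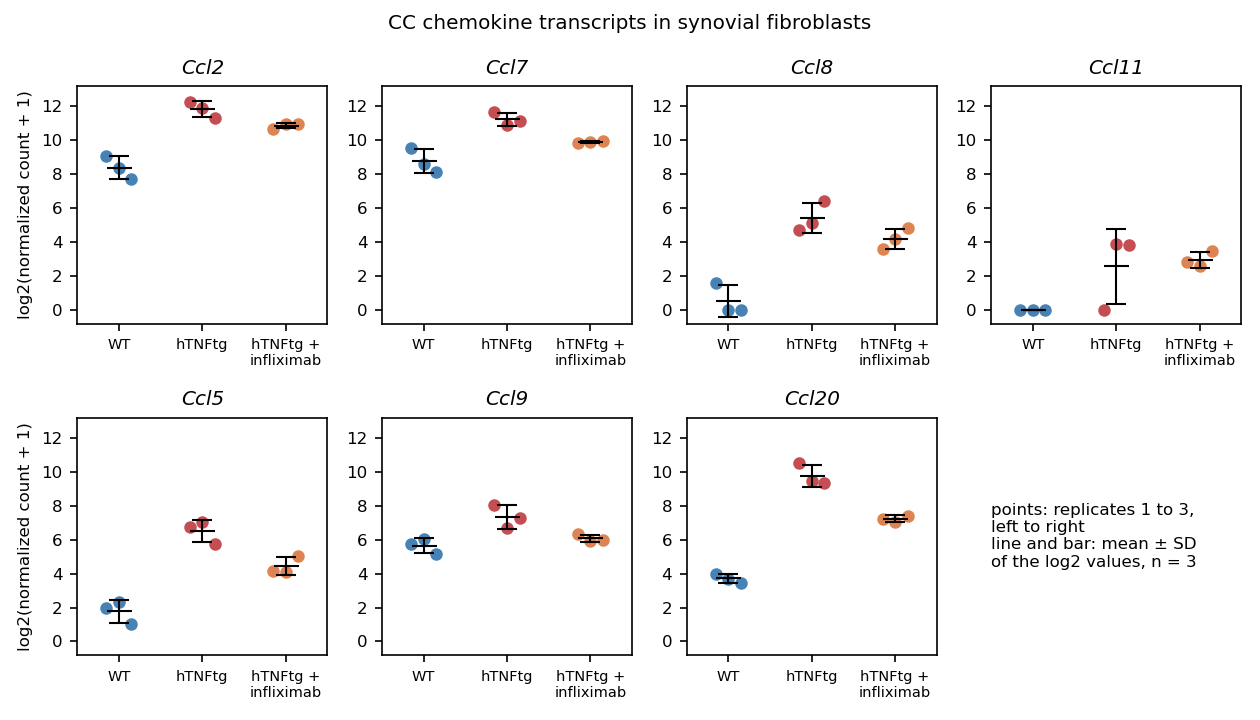
The log2 of the normalized count plus 1 is plotted for 7 CC chemokine genes in WT, hTNFtg and infliximab-treated hTNFtg SFs. Points are replicates 1 to 3 from left to right, and lines with bars are the mean ± SD of the log2 values (n = 3). Ccl2 and Ccl7 sit highest in each group, Ccl20 shows the widest step from WT to hTNFtg on this scale, which holds down the steps of Ccl8 and Ccl11 from WT libraries at or near 0, and the infliximab points lie below the hTNFtg points except in Ccl8 and Ccl11, where they overlap.

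By mean level, the order in WT SFs was Ccl7, Ccl2, Ccl9, Ccl20, Ccl5 and Ccl8, with Ccl11 and Ccl19 at 0. Ccl7 and Ccl2 overlapped there, as did Ccl5 and Ccl8, while the ranges of Ccl2, Ccl9, Ccl20 and Ccl5 did not overlap each other. In hTNFtg SFs the order was Ccl2, Ccl7, Ccl20, Ccl9, Ccl5, Ccl8 and Ccl11, so that Ccl20 moved ahead of Ccl9. The ranges of Ccl2 and Ccl7, of Ccl9 and Ccl5, and of Ccl5 and Ccl8 overlapped in hTNFtg SFs. With infliximab the order was the same, and only Ccl5 and Ccl8 overlapped between neighbours.

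Summed over the 8 genes, WT replicates 1, 2 and 3 held 1367, 799 and 537 normalized counts, hTNFtg 9960, 6770 and 5762, and infliximab-treated SFs 2828, 3156 and 3250. This was 0.0124% to 0.0312% of the normalized counts of a WT library, 0.120% to 0.261% of an hTNFtg library and 0.0669% to 0.0777% of an infliximab library. The groups did not overlap in this share. Ccl2 and Ccl7 together made up 90.0% to 94.7% of the sum in WT, 81.5% to 85.6% in hTNFtg and 90.7% to 92.8% with infliximab. The share of Ccl20 was 1.10% to 1.86% in WT, 10.3% to 14.4% in hTNFtg and 4.09% to 5.30% with infliximab.

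**Figure D2:**
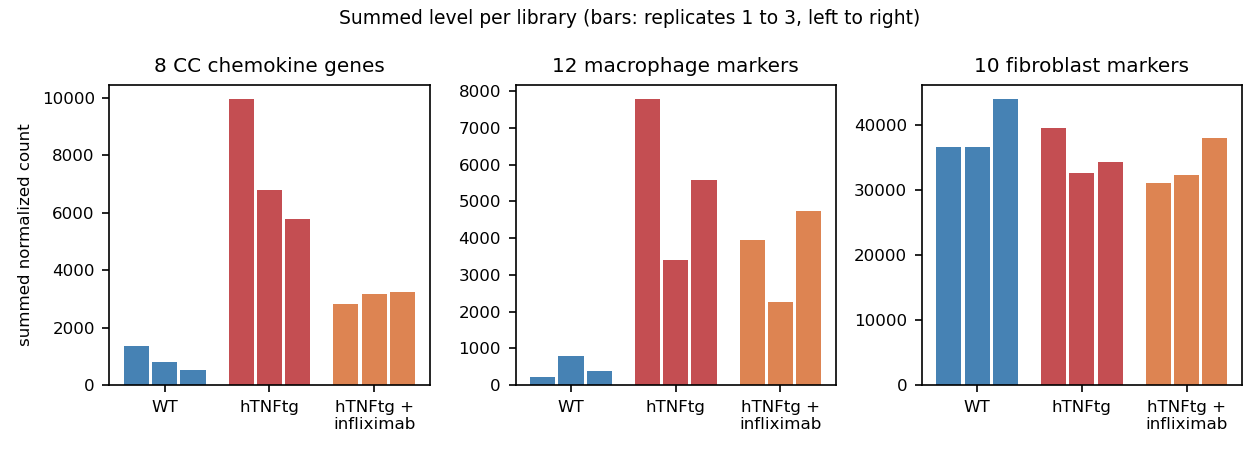
Bars give the summed normalized count per library, replicates 1 to 3 from left to right in each group, for the 8 CC chemokine genes, 12 macrophage markers and 10 fibroblast markers. The chemokine sums, 5762 to 9960 in hTNFtg and 2828 to 3250 with infliximab, do not overlap, the macrophage sums of the same groups overlap (3415 to 7797 and 2268 to 4738), and the fibroblast sums lie between 31192 and 44105.

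The second comparison asked what blocking human TNF did to these transcripts. It shares the 3 hTNFtg libraries with the first, so a high hTNFtg library raises the first difference and lowers the second. Infliximab-treated SFs had lower levels of 5 of the 7 genes by the study's rule, Ccl5, Ccl7, Ccl8, Ccl9 and Ccl20, where 0.936% of all 28540 genes tested were lowered. The treated libraries lay below all untreated ones for Ccl2, Ccl5, Ccl7, Ccl9 and Ccl20, 5 of 7 genes, against 3.44% of all genes. The median log2 fold change of the 7 genes was -1.27, against 0.00 over all genes. No gene of the whole table had an adjusted p under 0.05 in limma (0 of 7 members and 0% of all genes, while 3.59% of all genes had an unadjusted p under 0.05). In edgeR's test 2 of the 7, Ccl20 and Ccl5, were lower at an adjusted p under 0.05, against 0.343% of all genes.

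Ccl20 fell most. Its mean with infliximab, 149.7 ± 20.5 (SD, n = 3), was 16.1% of the untreated mean, a log2 fold change of -2.53 (standard error 0.33, limma adjusted p = 0.0992, edgeR adjusted p = 1.19e-08). Ccl5 followed at 22.6% of the untreated mean, a log2 fold change of -2.07 (standard error 0.46, limma adjusted p = 0.803, edgeR adjusted p = 0.00117).

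Ccl7, with infliximab libraries at 964.3 ± 34.5 normalized counts (SD, n = 3), was left at 39.2% of the untreated mean, a log2 fold change of -1.32 (standard error 0.32, unadjusted p = 0.00131 and adjusted p = 0.803 in limma). Ccl9 was at 38.2%, with a log2 fold change of -1.27 (standard error 0.37, unadjusted p = 0.00453 in limma). Without hTNFtg replicate 1, in which Ccl9 was highest, its log2 fold change was -0.91, below the size that the rule asks for. Ccl8 was also at 38.2%, with a log2 fold change of -1.23 (standard error 0.57, unadjusted p = 0.0499 in limma), and its call was lost in 10 of 17 alternatives, among them the fits without hTNFtg replicate 2 (-1.38), hTNFtg replicate 3 (-0.73), infliximab replicate 1 (-0.93) and infliximab replicate 2 (-1.22).

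Ccl2 was not called. Its mean with infliximab, 1850 ± 183.0 (SD, n = 3), was 48.9% of the untreated mean, and its log2 fold change of -0.99 (standard error 0.37, 95% interval -1.79 to -0.18, unadjusted p = 0.0203 in limma) missed the size of the rule narrowly. It passed in 3 of 17 alternatives, with array quality weights (-1.04) and without hTNFtg replicate 3 (-1.24) or infliximab replicate 3 (-1.03). Ccl11 stood at 77.8% of the untreated mean with overlapping libraries, and its log2 fold change of 0.38 had a 95% interval of -1.96 to 2.72. The positive sign comes with the 0 of hTNFtg replicate 1, since without that library the value was -0.91, and edgeR gave -0.56.

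**Figure D3:**
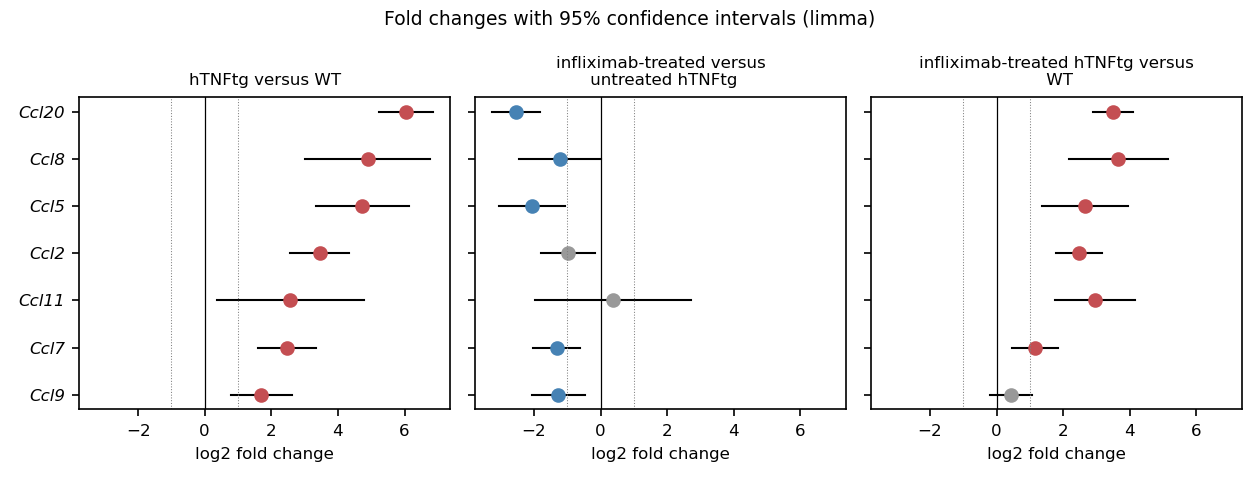
Log2 fold changes from limma with 95% confidence intervals are plotted for 7 CC chemokine genes in 3 comparisons, with dotted lines at a log2 fold change of 1 in either direction. Red and blue points are genes raised and lowered by the study's rule, and grey points are not called. All 7 points are red in hTNFtg versus WT SFs, 5 are blue in infliximab-treated versus untreated hTNFtg SFs, and 6 are red in infliximab-treated hTNFtg versus WT SFs, with Ccl9 grey.

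The third comparison measured how far infliximab-treated hTNFtg SFs still differed from WT SFs. Of the 7 genes, 6 were raised by the study's rule, where 3.86% of all 28243 genes tested were, and 4 had an adjusted p under 0.05 in limma, against 0.365%. The groups did not overlap for the same 6 genes, against 7.14% of all genes. The median log2 fold change of the 7 genes was 2.66, or 2.46 with Ccl11 at its lower bound. This comparison shares libraries with each of the others. The 4 adjusted calls were lost without any 1 of the 6 libraries, whereas 5 or 6 genes stayed past the study's rule. These adjusted calls were also lost without a filter on low values and with the replicate number as a block.

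Ccl20 stayed furthest above WT among the genes with more than 2 reads there, at 12.1 times the WT mean and a log2 fold change of 3.51 (standard error 0.27, limma adjusted p = 0.0028). Ccl2 stayed at 5.14 times the WT mean (log2 fold change 2.46, standard error 0.31, limma adjusted p = 0.0172) and at rank 340 of 25313 genes. Ccl5 stayed at 8.13 times (log2 fold change 2.66, standard error 0.57, limma adjusted p = 0.0808). For Ccl8 the pooled reads were 35.8 times those of WT per unit of depth, with an exact 95% counting interval of 9.53 to 302 (limma adjusted p = 0.0462), and 21.1 times without WT replicate 3. Ccl11, at 6, 5 and 10 against 0 in each WT library, was at least 2.77-fold higher (limma adjusted p = 0.0454).

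Ccl7 and Ccl9 were the genes that came closest to WT. Ccl7 was at 2.03 times the WT mean, with a log2 fold change of 1.14 (standard error 0.31, limma adjusted p = 0.154) that fell to 0.83 without WT replicate 3. Ccl9 was at 1.32 times the WT mean with overlapping libraries, and its log2 fold change of 0.43 had a 95% interval of -0.20 to 1.06 (unadjusted p = 0.158 and adjusted p = 0.597 in limma).

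The unequal fold changes can also be read as ratios between members within a library. These ratios were chosen after the levels had been seen and restate the same values, and an exact permutation test of 3 against 3 libraries cannot go below p = 0.1, so they are given as a description. Ccl2 was below Ccl7 in every WT library, with ratios of 0.727, 0.844 and 0.729, and above it in every hTNFtg library, with ratios of 1.53, 1.98 and 1.16. With infliximab the ratios were 1.77, 2.02 and 1.96. The mean log2 ratio in hTNFtg SFs lay 0.99 above that in WT SFs. Infliximab-treated SFs overlapped with untreated hTNFtg SFs in this ratio (difference 0.33) and lay 1.32 above WT SFs. The starts of Ccl2 and Ccl7 lie 10.1 kb apart.

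The ratio of Ccl20 to Ccl2 was 0.0275, 0.0365 and 0.0483 in WT, 0.293, 0.181 and 0.252 in hTNFtg, and 0.0915, 0.0659 and 0.087 with infliximab, with no overlap between any groups. The log2 differences were 2.70 between hTNFtg and WT SFs, -1.56 between infliximab-treated and untreated hTNFtg SFs and 1.15 between infliximab-treated and WT SFs. For Ccl20 to Ccl5 the groups overlapped in each of the 3 comparisons.

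**Figure D4:**
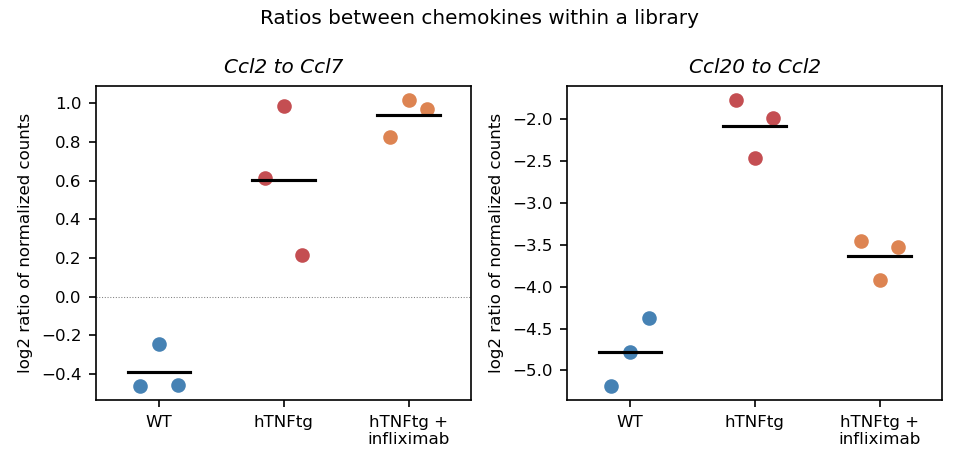
The log2 ratio of normalized counts within a library is plotted for Ccl2 to Ccl7 and for Ccl20 to Ccl2. Points are replicates 1 to 3 from left to right and lines are means. For Ccl2 to Ccl7 the WT points lie below 0 and all hTNFtg and infliximab points above 0, and for Ccl20 to Ccl2 the infliximab points lie between the WT and hTNFtg points without overlap.

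Across the 9 libraries the log2 levels of the members with a mean of at least 10 correlated with Pearson's r of 0.68 (Ccl8 and Ccl9) to 0.97 (Ccl5 and Ccl20). The points share their libraries, depth and the differences between the 3 groups, so this is a description without a test. Among 13594 genes other than the 8 members with a mean of at least 10, those most alike in pattern over the 9 libraries were Ppm1h (r = 0.99) and Il1rl1 (r = 0.99), the gene of the IL-33 receptor, for Ccl20, and Il1rl1 (r = 0.98) and Uck2 (r = 0.97) for Ccl5. For Ccl2 they were Gng12 (r = 0.98) and Enpp2 (r = 0.98), the gene of autotaxin. For Ccl7 they were Tnfaip3 (r = 0.97) and Itgam (r = 0.97), a myeloid integrin gene and 1 of the macrophage markers. For Ccl8 they were Vcan (r = 0.99) and Ptgs2 (r = 0.98), and for Ccl9 Psmd1 (r = 0.97) and Naa35 (r = 0.96).

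The neighbours of these genes in the clusters differed in their calls. In the first cluster Ccl12, a monocyte attractant between Ccl11 and Ccl8, was at 0 in each WT library and at 6, 3 and 10 in hTNFtg SFs, past the study's rule (unadjusted p = 0.00272 and adjusted p = 0.176 in limma) but at levels at which no fold can be given. Ccl1, at the far end, was above 0 in 1 library only. In the second cluster Ccl6 had a log2 fold change of 1.03 between hTNFtg and WT SFs (95% interval -0.69 to 2.76) and Ccl3 of 0.83 (95% interval -1.06 to 2.71), neither called by limma. Ccl4, a close relative of Ccl3, was at 5, 12 and 1 in WT, at 31, 11 and 65 in hTNFtg and at 14, 10 and 44 with infliximab, past the rule in hTNFtg versus WT SFs with overlapping libraries (log2 fold change 2.45, standard error 0.89, limma adjusted p = 0.431).

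**Figure D5:**
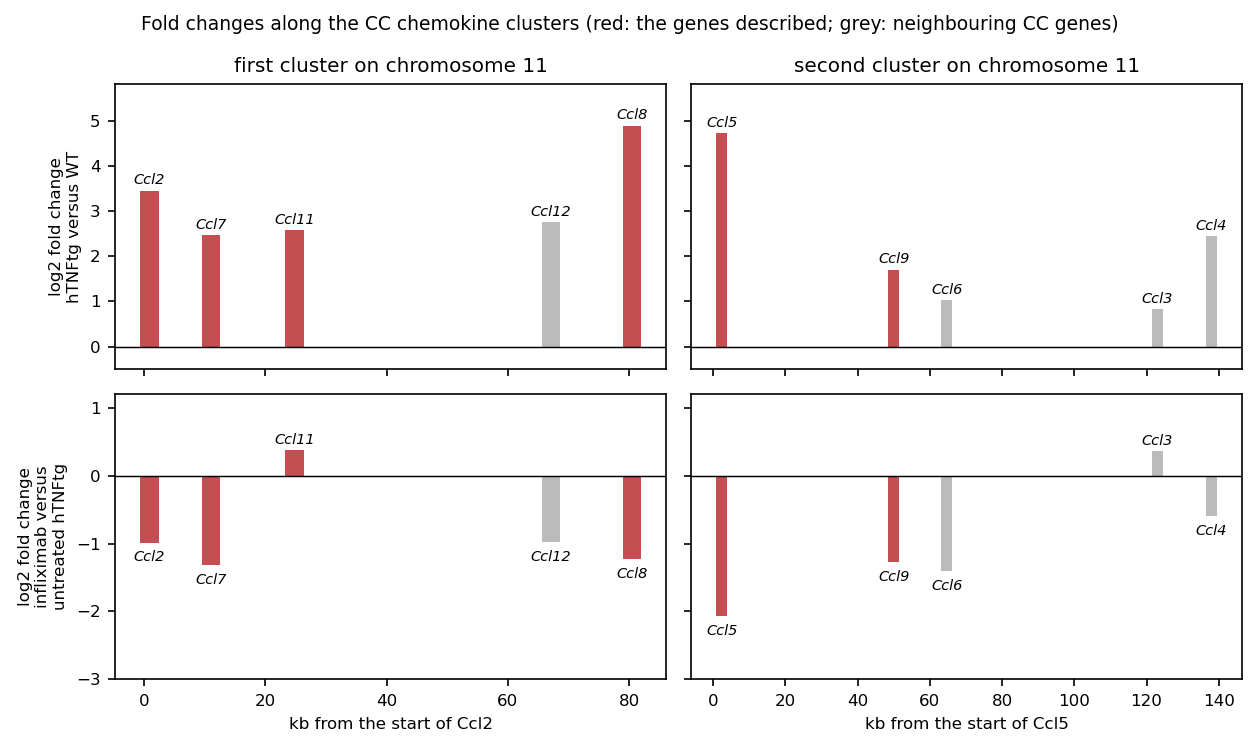
Bars give limma's log2 fold change of each CC chemokine gene by its distance in kb from the first gene of the cluster, above for hTNFtg versus WT SFs and below for infliximab-treated versus untreated hTNFtg SFs. Red bars are the genes followed here and grey bars their CC neighbours. Ccl8 (4.89) and Ccl5 (4.73) have the tallest bars above. The bars of Ccl8, Ccl11 and Ccl12 rest on WT libraries at or near 0 and depend on the pseudocount.

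Of a list of 15 other CC chemokine genes, 14 were in the tables and 8 could be tested between hTNFtg and WT SFs. Ccl12 and Ccl4 were raised and Ccl27a was lowered by the rule, by which 3.35% of all genes were raised and 3.04% lowered. The median over the 8 was 0.75 on the log2 scale, against -0.0034 over all genes tested. Ccl27a was at 8521 ± 3948 normalized counts in WT and 3721 ± 2491 in hTNFtg SFs (SD, n = 3). Its log2 fold change was -1.37 (unadjusted p = 0.0459 and adjusted p = 0.635 in limma). Its counts followed those of Il11ra1 at a ratio of 0.502 to 0.539 (Il11ra1 to Ccl27a) in every library. The 2 genes overlap by 8 bases on opposite strands. Whether they share reads was not tested, and a change of Ccl27a cannot be told apart from a change of Il11ra1. None of 9 tested genes of this list was called with infliximab, which is near the 0.936% of all genes that were lowered.

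Among receptors for these chemokines, Ccr6, the receptor of Ccl20, was at 0 in all 9 libraries, and Ccr2, the receptor of Ccl2 and Ccl7, did not exceed 1. Between hTNFtg and WT SFs, Ccr1 was raised (limma adjusted p = 0.3045) and Ccr7 was lowered (limma adjusted p = 0.2182) by the rule. Ccr1 was at 0, 2 and 0 in WT and at 6, 7 and 11 in hTNFtg SFs, and Ccr7, the receptor of Ccl19, at 16, 7 and 5 in WT and at 0, 0 and 1 in hTNFtg SFs. The 6 of Ccr1 in hTNFtg replicate 1 rests on 1 read. Neither Ccr1 nor Ccr7 was called in infliximab-treated versus untreated hTNFtg SFs, where Ccr7 was too low in the untreated libraries to be called lower. In infliximab-treated hTNFtg versus WT SFs, Ccr1 was raised (log2 fold change 1.69, limma adjusted p = 0.292) by the rule. Ccr7 was lowered there (log2 fold change -3.22, limma adjusted p = 0.0472).

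Of 22 genes that lead from TNF to NF-kB, all tested, 8 were raised in hTNFtg versus WT SFs and 0 lowered, against 3.35% and 3.04% of all genes, and 3 were lowered by infliximab, against 0.936%. Their median in the former comparison was 0.42 on the log2 scale. Those with adjusted p under 0.05 were the NF-kB inhibitors Nfkbia and Nfkbie. Nfkbia, which NF-kB itself induces, was at 302, 267 and 319 normalized counts in WT, at 953, 1313 and 1714 in hTNFtg and at 708, 600 and 859 with infliximab. Its log2 fold change between hTNFtg and WT SFs was 2.12 (standard error 0.31, limma adjusted p = 0.0148) and that with infliximab -0.85 (adjusted p = 0.803 in limma), short of the rule, with no overlap between the 3 groups. Nfkbie was at 11, 24 and 14 in WT, at 75, 113 and 151 in hTNFtg and at 44, 27 and 48 with infliximab, a log2 fold change of 2.73 between hTNFtg and WT SFs (limma adjusted p = 0.0237) and of -1.47 with infliximab. Tnfaip3, the gene of the NF-kB inhibitor A20, was at 3, 1 and 0 in WT, at 50, 14 and 21 in hTNFtg and at 9, 5 and 11 with infliximab, raised in the first comparison and lowered in the second by the rule.

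Birc3 (log2 fold change 1.58) and Nfkb1 (1.18) were also raised in hTNFtg versus WT SFs, and neither was called with infliximab. Nfkbib had a log2 fold change of 1.97 in hTNFtg versus WT SFs and of -1.17 with infliximab, but its counts were nearly those of the antisense gene Ccer2 (ratio of Ccer2 to Nfkbib 0.833 to 1.00), so that the reads of the 2 genes cannot be told apart. Tnfrsf1a, the gene of the main TNF receptor of fibroblasts, was at 747.3 ± 344.4 normalized counts in WT, 611.3 ± 240.8 in hTNFtg and 845.7 ± 103.5 in infliximab-treated SFs (SD, n = 3), with overlapping libraries and no call in the 3 comparisons.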

How the data were processed

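RNA of SFs was sequenced in 9 libraries from the 3′ end with the QuantSeq kit on an Ion Proton. According to the methods, the authors mapped reads to mm10 with TopHat2, mapped the rest with Bowtie2, counted them per gene with GenomicRanges, removed genes without counts and normalized through metaseqR. Of the forms of the values that the authors deposited, the score used here was a normalized count without decimals for each gene in each library. For hTNFtg replicate 1 the deposited signal is a whole number of reads multiplied by a factor. The design assumed normalized counts and was kept. The 24 per-sample columns of other forms of these values, and the columns of the authors' own tests (p-values and fold changes), were not used.

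The worth of 1 read in each library was read from the spacing of its low values, and values divided by it are the approximate reads. In a self-test 16 of 16 known spacings were recovered to within 1 percent. Depth per library and the floor of 3 reads that it gives are stated with the results. Groups were compared with limma 3.58.1 (lmFit and trended eBayes, R 4.3.3) fitted to log2(normalized count + 1) for genes that were not 0 throughout the 6 libraries, with Benjamini-Hochberg adjustment over all genes tested. On simulated data for hTNFtg versus WT SFs (24702 genes, 200 of them changed 4-fold), the study's rule found 95.5% of the changed genes with 602 unchanged ones, and the adjusted p found 42.5% with 0. The changed genes were drawn from those with a WT mean of at least 10, and the same dispersion was set for every gene. Ccl5, Ccl8 and Ccl11 lie below that mean, so these shares do not cover them.

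Alternatives were a pseudocount of 0.5 or 5, a mean of at least 10, no filter, median ratios, quantile normalization, array quality weights, robust eBayes, all 9 libraries in one fit, the replicate number as a block, edgeR 4.0.16 on approximate reads, and leaving out each library in turn. The pooled Ccl8 ratio without each library was added after seeing the data. Named genes were the 8 members, up to 6 genes per list past the rule in hTNFtg versus WT SFs with the largest fold changes, Nfkbia, Tnfaip3, Tnfrsf1a and Ccr6, and the 2 genes outside the 8 most alike to each member with a mean of at least 10. One gene that this rule names is not reported here. Other genes named with values (the macrophage genes Ptprc, Lyz2 and C1qb, the fibroblast genes Pdpn and Lum, the cluster neighbours Ccl1, Ccl3 and Ccl6, Ccr2, and genes with shared sequence or parallel counts) were chosen after their values were seen. The members and lists were chosen with earlier results of these data known.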

Additional observations from a re-analysis of the deposited data

How the results depend on the processing

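By the study's rule, the number of the 8 genes called stayed within 1.5 times the 7, 5 and 6 of the 3 comparisons under the alternatives run, and no log2 fold change of a member changed direction with a call. Of the members' fold changes in hTNFtg versus WT SFs, 111 of 118 values under alternatives kept their call and 7 lost it, all of Ccl11. With infliximab versus untreated hTNFtg SFs 103 of 118 kept it, 12 lost it and 3 gained it, and in infliximab-treated hTNFtg versus WT SFs 116 of 117 kept it and 1 lost it. The number with an adjusted p under 0.05 was less stable. In hTNFtg versus WT SFs the 5 became 0 without a filter on low values, and 0 to 3 without any 1 library. In infliximab-treated versus untreated hTNFtg SFs the 0 became 3 with array quality weights, 1 with robust eBayes, 1 with all 9 libraries in one fit and 2 in edgeR. In infliximab-treated hTNFtg versus WT SFs the 4 became 0 without a filter, 2 with all 9 libraries in one fit and 0 without any 1 library. Fewer samples remain in the fits without a library, and for the others the cause was not tested. With the replicate number as a block, the number was 0 in hTNFtg versus WT SFs, 0 with infliximab versus untreated hTNFtg SFs and 0 in infliximab-treated hTNFtg versus WT SFs. No label ties libraries of the same number, and they were not treated as pairs. The correlation of their deviations from the group means was -0.14 to 0.35 in hTNFtg versus WT SFs, 0.07 to 0.27 with infliximab and -0.15 to 0.10 in infliximab-treated hTNFtg versus WT SFs. In none of the 3 comparisons did every library correlate best with its own number. In infliximab-treated versus untreated hTNFtg SFs all did except infliximab replicate 1, at 0.07 with its own number and 0.13 with hTNFtg replicate 2. Whether same-numbered libraries share more than the number was not settled by these values. Depth limits Ccl8 and Ccl11, most of all in hTNFtg replicate 1.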
